A study of Arabidopsis thaliana with 4 samples.

Results

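A set of 95 probe sets, out of 22746 on the array, gave a lower signal in shoot apices of both the as1-1 and the as2-1 mutant than in apices of AS2 overexpressing and wild type plants, while the last 2 stayed close to each other. The members were chosen from the measured signals themselves. Signals under 43 were raised to that floor, the lower of the AS2 overexpressing and wild type signals had to reach 80, it had to be at least 1.5 times the higher of the as1-1 and as2-1 signals, and AS2 overexpressing and wild type had to lie within 1.5-fold of each other. The genes AT5G59130, AT1G59740, AT1G48100, LHCB4.2 and PORB and the plastid genome genes were left out. Below, the gap of a gene is the lower of its AS2 overexpressing and wild type signals divided by the higher of its 2 mutant signals. The gap chose the members, so all gaps are given as descriptions and none is a test.

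All apices, with their leaf primordia, were harvested after 14 days from soil-grown Arabidopsis thaliana in a Col-0 background, under long days (light for 16 hours, dark for 8). The groups were as1-1 mutant, as2-1 mutant, AS2 overexpressing and wild type plants, with 1 Affymetrix array each. For the overexpressing line, the sources used here give no promoter. With 1 array per genotype no difference below has a replicate, an error or a p-value, and each describes these 4 arrays. Some sample text speaks of embryos, which goes against the tissue and growth labels. The tissue and growth labels were followed.

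AS1 is a MYB-domain protein and AS2 a nuclear protein of the LBD family. The proteins bind each other and are best known for repressing class I KNOX genes and genes of the abaxial (lower) leaf side in young primordia, and plants that lack either form lobed, asymmetric leaves. No probe set carried the name AS1, AS2 or a class I KNOX gene in the naming table, so the mutated genes could not be checked on their own arrays. Of the genes of leaf side identity that were looked up and named, YAB3 and PHV gave signals above the floor on all 4 arrays, while AGO7 and YAB5 did not. AGO7, which acts in adaxial identity, gave 55.2 in as1-1 and 82 in as2-1, against 45.2 in AS2 overexpressing and 24.9 in wild type apices. YAB5, an abaxial gene, gave 351 in as1-1 and 384 in as2-1, against 4.9 in AS2 overexpressing and 149.7 in wild type apices. CLV3, the 1 named marker of the meristem's stem cells, lay under the floor on every array.

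Of 9732 probe sets that met the level and closeness criteria, 95 met the gap as well, which is 0.976%. With the criteria turned round and the same genes left out, 220 probe sets were higher in both mutants. There the level of 80 and the 1.5-fold closeness were asked of as1-1 and as2-1. AS2 overexpressing and wild type were not held close to each other. How many probe sets met those criteria was not counted, so the 220 are not set against the 95. The naming table gave 1 gene for 57 of the 95, several genes for 2 and none for 36. The median gap was 1.65-fold and the largest 3.90-fold, and 32 members had a gap under 1.6. A gap of at least 2 was found for 14 members, or 0.144% of the probe sets tested. In single comparisons, as1-1 was at least 2-fold lower than wild type for 37 members and as2-1 for 41. Among all 11510 probe sets at 80 or more in wild type, 199 (1.73%) were in as1-1 and 254 (2.21%) in as2-1. Against AS2 overexpressing apices the member counts were 34 in as1-1 and 33 in as2-1. Among all 11149 probe sets at 80 or more there, 134 (1.2%) were in as1-1 and 150 (1.35%) in as2-1. The rule used these contrasts, so nothing is read from the counts.

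The members' signals ran from 35.1 to 2980 in as1-1, from 26.9 to 2314 in as2-1, from 80.8 to 4477 in AS2 overexpressing and from 83 to 6082 in wild type apices. The medians were 137.5 in as1-1, 126.7 in as2-1, 256.9 in AS2 overexpressing and 265.1 in wild type. By the lower of the AS2 overexpressing and wild type signals, 36 members lay between 80 and 160, 21 between 160 and 320, 28 between 320 and 1000 and 10 at 1000 or more. These were 1.17%, 0.691%, 1.1% and 0.944% of the probe sets tested in each band. Only 1 member was under the floor in both mutants and 9 were under it in 1 mutant. A mutant signal of at least 80 was found for 69. The floor is no detection call, and it lies under the median signal of every array. The array's precision could not be assessed from these values, and in a whole apex fewer cells of a type and less RNA per cell cannot be told apart.

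**Figure D1:**
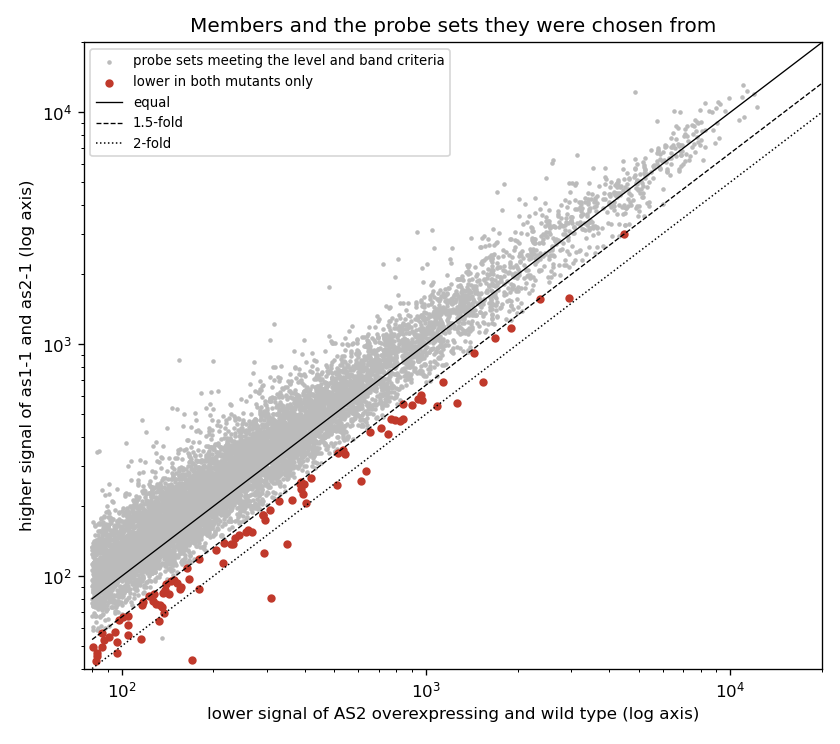
Each point is a probe set, with the lower of its AS2 overexpressing and wild type signals on the horizontal axis and the higher of its as1-1 and as2-1 signals on the vertical axis (both log axes, signals floored at 43). Grey points are the probe sets that met the level and closeness criteria, red points are the 95 members, which lie under the dashed 1.5-fold line, and 14 of them reach the dotted 2-fold line.

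The gene with the largest gap was AT3G49160, of the pyruvate kinase family, whose enzymes catalyse the last step of glycolysis. Its signal was 40.6 in as1-1 and 43.7 in as2-1, against 171 in AS2 overexpressing and 208 in wild type apices, a gap of 3.9. The as1-1 signal was under the floor and the as2-1 signal just above it, while both other arrays were well above it. AT5G57345 gave 126 in as1-1 and 112 in as2-1, against 294 in AS2 overexpressing and 348 in wild type apices (gap 2.33). AT5G16030 gave 555 in as1-1 and 559 in as2-1, against 1262 in AS2 overexpressing and 1492 in wild type apices (gap 2.26), and its mutant signals were almost equal. AT2G29670, of the tetratricopeptide repeat family, whose repeats bind other proteins, gave 285 in as1-1 and 174 in as2-1, against 633 in AS2 overexpressing and 849.5 in wild type apices (gap 2.22). Here the mutants were not alike, as2-1 being the lower.

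A further 5 named genes had a gap of at least 2. AT3G16120, of the dynein light chain family, gave 39.8 in as1-1 and 53.7 in as2-1, against 131 in AS2 overexpressing and 116 in wild type apices, and its as1-1 signal was under the floor. AT4G00750, of a methyltransferase family, gave 45.6 in as1-1 and 46.7 in as2-1, against 96.8 in AS2 overexpressing and 98.3 in wild type apices, with each pair almost equal. Both genes were thus near the floor in the mutants and only moderately above it elsewhere. AT1G20030, of the thaumatin family of pathogenesis-related proteins, gave 248 in as1-1 and 223 in as2-1, against 592 in AS2 overexpressing and 510.1 in wild type apices (gap 2.06). AT5G56100, which encodes an oleosin-like glycine-rich protein, gave 87.9 in as1-1 and 62.4 in as2-1, against 179.7 in AS2 overexpressing and 239.8 in wild type apices (gap 2.04). AT3G08920 has a rhodanese domain, a fold of sulphur-transfer enzymes, and gave 477 in as1-1 and 544 in as2-1, against 1103 in AS2 overexpressing and 1089 in wild type apices (gap 2). In these 3 genes each mutant was at least 2-fold below both other arrays.

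**Figure D2:**
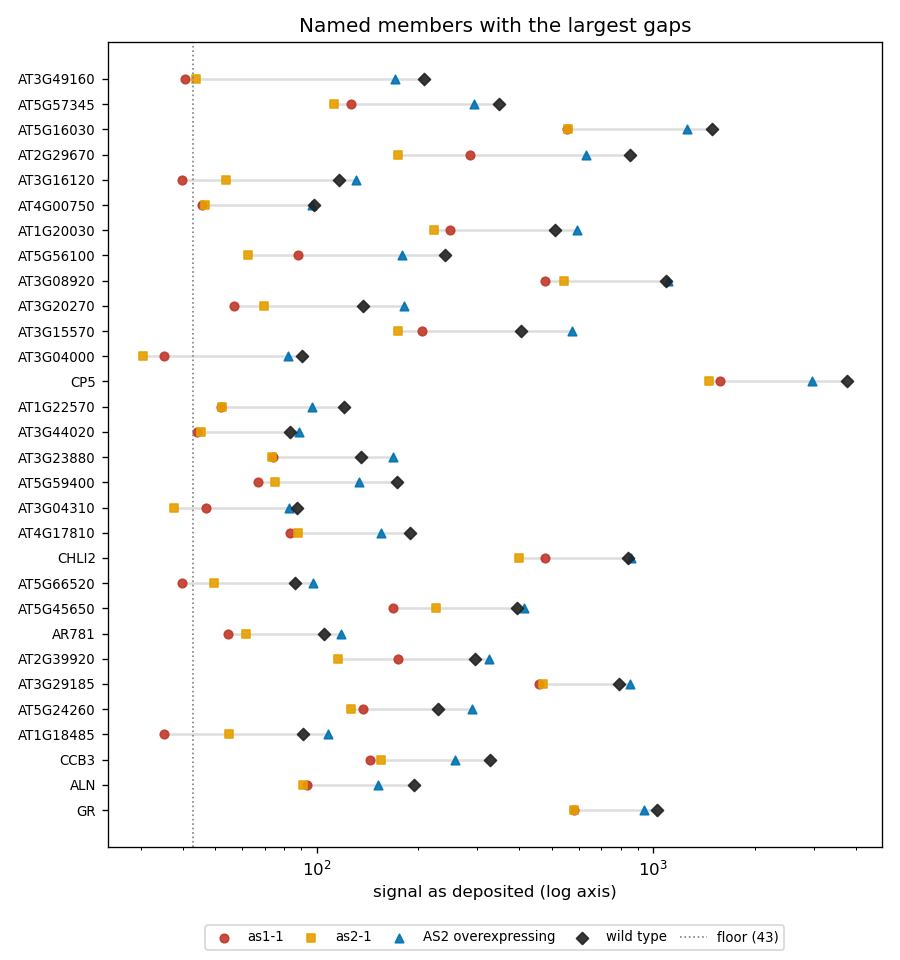
Signals as deposited (log axis) of the 30 named members with the largest gaps, 1 row per gene and 1 point per array. The 2 mutant points lie left of the 2 others in every row, as the rule requires. The distance is widest for AT3G49160, and most rows show the AS2 overexpressing and wild type points close together.

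A group of 8 among the 57 named members, nuclear genes with known plastid roles, was gathered after the members were known. It is no full count of plastid proteins, as protein location was not looked up for every member. The share of such genes among all named probe sets tested was not computed, so nothing is read from that count. CHLI2, an ATPase subunit of magnesium chelatase, which commits protoporphyrin to chlorophyll, gave 478 in as1-1 and 399 in as2-1, against 858 in AS2 overexpressing and 842.5 in wild type apices (gap 1.76). HCF101, which carries iron-sulphur clusters to photosystem I, gave 602 in as1-1 and 596 in as2-1, against 965 in AS2 overexpressing and 1056 in wild type apices (gap 1.6). CCB3, needed to attach a haem to cytochrome b6, gave 144 in as1-1 and 155 in as2-1, against 257 in AS2 overexpressing and 327 in wild type apices (gap 1.66). AT3G29185, which encodes an assembly factor of the chloroplast ATP synthase, gave 458 in as1-1 and 471 in as2-1, against 852 in AS2 overexpressing and 789.6 in wild type apices (gap 1.68). Chlorophyll synthesis, photosystem I, cytochrome b6f and ATP synthase were thus each represented by 1 gene, the last 3 by assembly factors and not by subunits.

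The other genes of this plastid group act on Rubisco, redox balance, lipids and RNA. AT5G51110, of a family of Rubisco assembly factors, gave 1056 in as1-1 and 1062 in as2-1, against 1685 in AS2 overexpressing and 1783 in wild type apices (gap 1.59). GR, the glutathione reductase of plastids and mitochondria, which keeps glutathione reduced, gave 581 in as1-1 and 580.5 in as2-1, against 939 in AS2 overexpressing and 1027 in wild type apices (gap 1.62). In both genes the mutant signals were almost equal. AT5G19940, of the fibrillin family of plastid lipid-binding proteins, gave 1177 in as1-1 and 879 in as2-1, against 1899 in AS2 overexpressing and 2166 in wild type apices (gap 1.61). CFM3B, of the CRM domain family of organelle intron splicing factors, gave 111 in as1-1 and 119 in as2-1, against 179 in AS2 overexpressing and 182.5 in wild type apices (gap 1.51), just inside the threshold. The 8 gaps lay between 1.51 and 1.76 with a median of 1.61, beside 1.65 over all 95 members. Group medians of the signal were 529 in as1-1, 526 in as2-1, 899 in AS2 overexpressing and 935 in wild type apices.

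**Figure D3:**
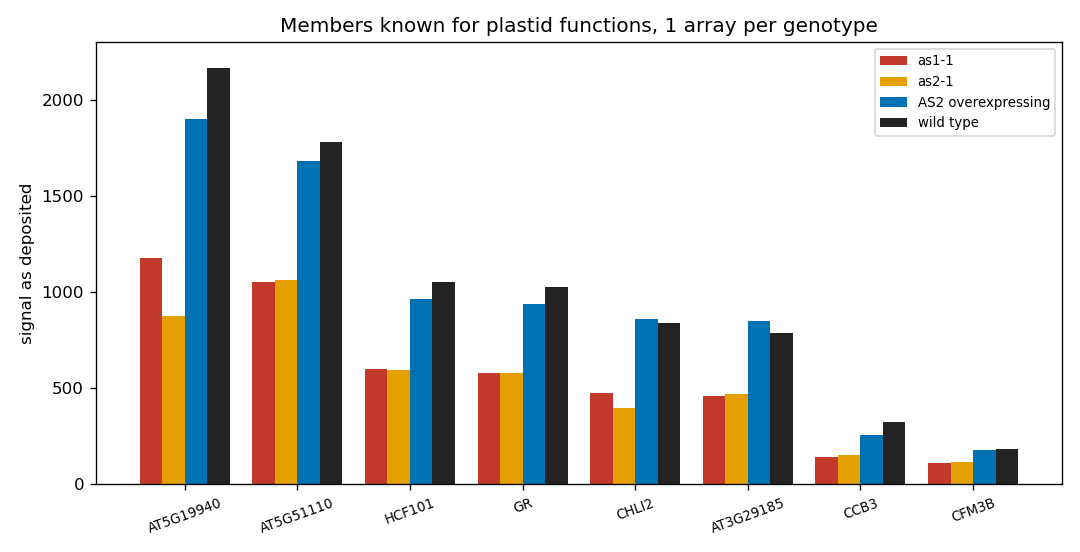
Signals as deposited (linear axis from 0) of the 8 members grouped for known plastid functions, 1 bar per array and so without error bars. In each gene the as1-1 and as2-1 bars are the lower pair, and the gaps are of similar size (1.51 to 1.76) at wild type levels from 182.5 for CFM3B to 2166 for AT5G19940.

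Lists of photosynthesis and plastid genes put the plastid members beside their pathways, though few genes of each were named on the array. In the chlorophyll synthesis list, 4 of 5 measured genes were at least 1.5-fold lower than wild type in as1-1 and 4 of 5 in as2-1. Over all probe sets at 80 or more in wild type, the shares were 8.1% in as1-1 and 9.02% in as2-1. CHLI2 was the 1 member among the 4, and PORB met the same numeric criteria. For these genes the rule itself fixed the outcome, so nothing is read from the 4. The others were CHLM and CHLP. CHLM, the next enzyme after magnesium chelatase, gave 2298 in as1-1 and 2109.5 in as2-1, against 2868 in AS2 overexpressing and 3893 in wild type apices. CHLP, which makes the phytol tail, gave 3555 in as1-1 and 2811 in as2-1, against 4979 in AS2 overexpressing and 6995 in wild type apices. In both, the mutants were again the lowest 2 arrays, but AS2 overexpressing apices were also below wild type and neither gap reached 1.5 (1.4 for CHLP). PORB, left out by name, gave 4006 in as1-1 and 2728 in as2-1, against 6262 in AS2 overexpressing and 6011 in wild type apices. GSA1, an early enzyme of the pathway, did not share the pattern, with 937 in as1-1 and 1520.2 in as2-1, against 1314 in AS2 overexpressing and 929 in wild type apices.

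Of the 8 measured light reaction genes, 3 were at least 1.5-fold lower than wild type in as1-1 and 3 in as2-1, and none was a member. Their median log2 differences from wild type were -0.39 in as1-1 and -0.52 in as2-1, beside 0.01 and -0.01 over all 10763 probe sets at 80 or more in both AS2 overexpressing and wild type apices. From the AS2 overexpressing array the medians were -0.28 in as1-1 and -0.33 in as2-1. Of 3 Calvin cycle genes, 3 in as1-1 and 1 in as2-1 were at least 1.5-fold below wild type, with medians of -0.75 and -0.58. From the AS2 overexpressing array these medians were -0.53 in as1-1 and -0.30 in as2-1. All differences from wild type share its 1 array. Of 7 plastid thioredoxin and target genes the counts were 2 in as1-1 and 1 in as2-1, with medians of -0.39 and -0.21, and from the AS2 overexpressing array -0.26 and -0.11. TRXF2, a thioredoxin that activates Calvin cycle enzymes, missed the rule narrowly, with 484 in as1-1 and 335 in as2-1, against 722 in AS2 overexpressing and 1046 in wild type apices (gap 1.49). The AS2 overexpressing signal was below wild type as well for several genes of these lists, by 1.34-fold for PSBY, 1.32-fold for PSAN, 1.32-fold for PSAE1, 1.28-fold for PSBW, 1.58-fold for LHCB4.2 and 1.35-fold for RCA. For these genes at least part of the difference between a mutant and wild type was thus shared by AS2 overexpressing apices. For PSAE1 all of the as1-1 difference was, as the AS2 overexpressing signal (7250) was under that of as1-1 (7524). PSAE1 gave 6639.5 in as2-1 and 9554 in wild type apices. Not all genes of these lists were lower in AS2 overexpressing than in wild type apices. ATPC1 and PRK were almost equal in the 2, TRXM2 (3118 against 2276) and TRXX (1252 against 1131) were higher. LHCB4.3 was higher as well (125 against 96.1), and also higher than wild type in as1-1 (121) and as2-1 (137). The part of these photosynthesis genes in the levels of the 8 plastid members was not tested.

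Enzymes outside the plastid group numbered 10, with AT3G49160, AT4G00750 and AT3G08920 above. For this group and for the role groups and families below, the share among all named probe sets tested was not computed. Nothing is read from these counts. ALN, allantoinase of the pathway that recycles purine nitrogen, gave 93.3 in as1-1 and 91.1 in as2-1, against 152 in AS2 overexpressing and 194 in wild type apices (gap 1.63). AT4G30000 encodes a bifunctional enzyme of folate synthesis and gave 65 in as1-1 and 62.1 in as2-1, against 103 in AS2 overexpressing and 98.1 in wild type apices, a gap of 1.51 at the edge of the rule. AT3G04000, of the short-chain dehydrogenase family, gave 35.1 in as1-1 and 30.4 in as2-1, against 82.4 in AS2 overexpressing and 90.2 in wild type apices. It was the 1 member under the floor in both mutants, so the gap is at least 1.92 and the mutants have no order. AT2G39920, of an acid phosphatase family, gave 174 in as1-1 and 115 in as2-1, against 324.5 in AS2 overexpressing and 295 in wild type apices (gap 1.7). AT2G39400, of the alpha/beta hydrolase family, gave 67.7 in as1-1 and 42.4 in as2-1, against 105 in AS2 overexpressing and 115.5 in wild type apices (gap 1.55). In both of these as2-1 was lower than as1-1 by at least 1.5-fold. AT3G10630, a glycosyltransferase family gene, had a gap of 1.51 and AT5G39080, an acyltransferase family gene, one of 1.51.

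The members tied to regulation were 5. YUC2, a flavin monooxygenase that makes auxin, gave 56.1 in as1-1 and 56.7 in as2-1, against 91.9 in AS2 overexpressing and 85.9 in wild type apices (gap 1.51). Its level was low on every array, and its gap slipped just under 1.5-fold after quantile normalization (log2 gap 0.56) and after loess (0.54). AT4G12980, of a family of auxin-responsive membrane proteins with a cytochrome b561 domain, gave 146 in as1-1 and 184 in as2-1, against 313 in AS2 overexpressing and 292 in wild type apices (gap 1.58). AT3G15570, of the NPH3 family, whose founder acts in phototropism, gave 206 in as1-1 and 174 in as2-1, against 573 in AS2 overexpressing and 404 in wild type apices (gap 1.96), and was higher in the overexpressing apices than in wild type. The remaining members of this group were C2H2 zinc finger genes. AT4G17810 gave 83.1 in as1-1 and 87.9 in as2-1, against 155 in AS2 overexpressing and 189 in wild type apices (gap 1.76). AT1G14580, of the IDD family, gave 95.4 in as1-1 and 83.5 in as2-1, against 161 in AS2 overexpressing and 145 in wild type apices (gap 1.52).

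Protein turnover was represented by 4 members. AT5G45650, of the subtilase family of serine proteases, gave 169 in as1-1 and 226 in as2-1, against 412 in AS2 overexpressing and 393 in wild type apices (gap 1.74), with as1-1 the lowest array. AT5G24260, of the prolyl oligopeptidase family, gave 137 in as1-1 and 127 in as2-1, against 289 in AS2 overexpressing and 229 in wild type apices (gap 1.67). AT3G23880 encodes an F-box protein, the part of a ubiquitin ligase that picks the substrate, and gave 73.9 in as1-1 and 73.8 in as2-1, against 168 in AS2 overexpressing and 135.5 in wild type apices (gap 1.83). AT1G71020, a U-box ubiquitin ligase gene, gave 350.2 in as1-1 and 312 in as2-1, against 532 in AS2 overexpressing and 596 in wild type apices (gap 1.52). The 2 mutant signals of AT3G23880 were almost identical, while those of AT5G45650 were among the least alike of the set.

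Transport and lipid-binding proteins made up another 5, with AT5G56100 above. CP5, which has a lipid-binding START domain, gave 1575 in as1-1 and 1463 in as2-1, against 2958 in AS2 overexpressing and 3756 in wild type apices (gap 1.88). AT3G20270, of a family of lipid-binding glycoproteins, gave 56.9 in as1-1 and 69.6 in as2-1, against 182 in AS2 overexpressing and 138 in wild type apices (gap 1.98). AT1G22570, of the nitrate and peptide transporter family, gave 51.9 in as1-1 and 52.2 in as2-1, against 96.6 in AS2 overexpressing and 120.2 in wild type apices (gap 1.85). AT1G33110, of the MATE efflux family, gave 83.3 in as1-1 and 83.5 in as2-1, against 128 in AS2 overexpressing and 160.5 in wild type apices (gap 1.53). Both transporter genes had nearly equal mutant signals.

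Among other families, the pentatricopeptide repeat proteins, which bind organelle RNA, gave 2 members near the floor. AT5G66520 had signals of 39.8 in as1-1 and 49.4 in as2-1, against 97.3 in AS2 overexpressing and 86.2 in wild type apices (gap 1.74). Those of AT1G18485 were 35.2 in as1-1 and 54.9 in as2-1, against 108 in AS2 overexpressing and 91 in wild type apices (gap 1.66). In both, as1-1 was under the floor and as2-1 above it. AT3G51660, of the macrophage migration inhibitory factor family (named after the human protein), gave 150.3 in as1-1 and 151 in as2-1, against 243 in AS2 overexpressing and 277.5 in wild type apices (gap 1.61). AT4G05040, of the ankyrin repeat family, gave 84.9 in as1-1 and 82.6 in as2-1, against 137 in AS2 overexpressing and 156 in wild type apices (gap 1.61).

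No role is stated here for 18 named members, whose gaps ran from 1.5 to 2.33 with a median of 1.6. Besides AT5G57345 and AT5G16030, those with the largest gaps were AT3G44020, AT5G59400 and AT3G04310. AT3G44020 gave 44.1 in as1-1 and 45.2 in as2-1, against 88.4 in AS2 overexpressing and 83 in wild type apices. AT5G59400 gave 66.9 in as1-1 and 75.2 in as2-1, against 133.5 in AS2 overexpressing and 173 in wild type apices. AT3G04310 gave 46.8 in as1-1 and 37.7 in as2-1, against 82.8 in AS2 overexpressing and 87.1 in wild type apices. AT3G44020 and AT3G04310 were near the floor in the mutants. AR781 followed, with 54.5 in as1-1 and 61.8 in as2-1, against 118 in AS2 overexpressing and 105 in wild type apices (gap 1.7). The others, in falling order of gap, were AT4G02920, AT3G18800, AT2G46220, AT5G42070, AT4G33666, AT1G61450, AT4G13220, AT1G01770, AT5G42330, AT3G61770, AT3G43540 and AT1G05440, with gaps from 1.61 to 1.5.

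**Figure D4:**
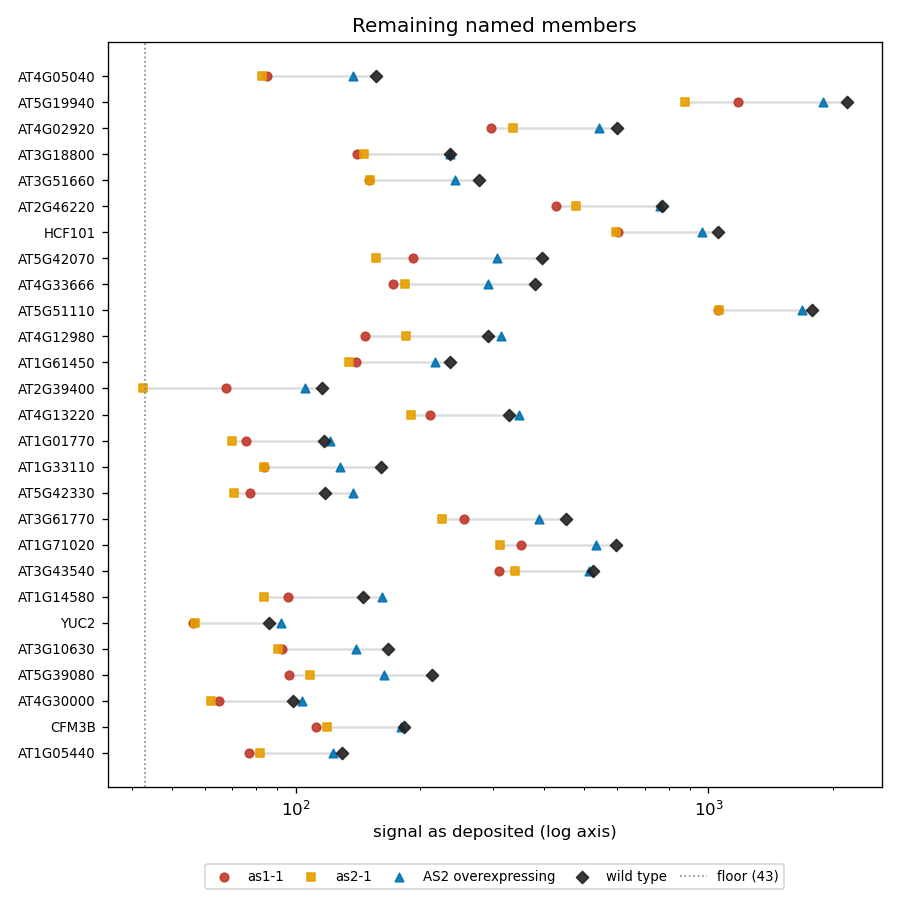
Signals as deposited (log axis) of the other 27 named members, ordered by gap from AT4G05040 (1.61) at the top to AT1G05440 (1.5) at the bottom. The spacing between the mutant pair and the other pair is similar in all rows.

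The 36 members without a gene name had gaps from 1.5 to 3.84 with a median of 1.65, close to that of the named members, and their median signals were 181 in as1-1, 175 in as2-1, 375 in AS2 overexpressing and 386 in wild type apices. The largest of these gaps belonged to probe set 248197_at, with 80.5 in as1-1 and 39.3 in as2-1, against 309 in AS2 overexpressing and 402.5 in wild type apices. Its as2-1 signal was under the floor and its as1-1 signal was above it. Probe set 254098_at gave 249 in as1-1 and 687 in as2-1, against 1537 in AS2 overexpressing and 1989 in wild type apices (gap 2.24), and here as1-1 was the far lower mutant. Another 2 members matched several genes each and are not named.

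At the edge of the rule, AT1G05440 (1.502), CFM3B (1.51), AT4G30000 (1.51) and AT5G39080 (1.51) were the last named genes inside. The first named genes outside were AT3G06470, TRXF2 (1.49), CRR28 and AT5G05090. AT3G06470 gave 121 in as1-1 and 145 in as2-1, against 239 in AS2 overexpressing and 217.5 in wild type apices (gap 1.497). CRR28, a pentatricopeptide repeat protein needed for editing of plastid transcripts, gave 61.1 in as1-1 and 52.5 in as2-1, against 102 in AS2 overexpressing and 90.9 in wild type apices (gap 1.49). AT5G05090 gave 54.7 in as1-1 and 59.8 in as2-1, against 88.5 in AS2 overexpressing and 102 in wild type apices (gap 1.48). Gaps on either side of the threshold thus differed in the second decimal.

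The 2 mutants were then compared within the members, a contrast the rule used only through the higher of the 2 signals. As1-1 was higher than as2-1 for 49 members, lower for 45 and equal for 1 at the floor, where it was higher for 4953 of the 9732 probe sets tested and lower for 4769. The median log2 difference of as1-1 minus as2-1 was 0.00, beside 0.01 over the probe sets tested. Of the 69 members with a mutant signal of at least 80, as1-1 was at least 1.2-fold lower than as2-1 for 5 (7.25%), where 13.9% of the probe sets tested with such a signal were. It was at least 1.2-fold higher for 10 of the 69 (14.5%), where 16.4% were. At a fold of 1.3 the shares were 4.35% lower, where 7.18% of the probe sets tested were, and 10.1% higher, where 8.71% were, so the share of higher members stood under or over that of the probe sets tested depending on the fold. The rule bounds the higher mutant signal, so these shares are a description. As1-1 was at least 1.5-fold above as2-1 for 5 members, AT2G29670, AT2G39920, AT2G39400 and 2 without a name, and at least 1.5-fold below it for 1, probe set 254098_at.

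Between the AS2 overexpressing and wild type arrays the rule itself kept members within 1.5-fold. The overexpressing signal was lower for 54 members, higher for 40 and equal for 1, where it was lower for 4920 of the 9732 probe sets tested and higher for 4800. The median log2 difference of AS2 overexpressing minus wild type was -0.06, beside -0.004 over the probe sets tested. It was at least 1.2-fold lower for 21 members (22.1%), where 17.7% of the probe sets tested were, and at least 1.2-fold higher for 10 (10.5%), where 17% were. At a fold of 1.3 these shares were 9.47% lower, where 8.58% were, and 4.21% higher, where 8.27% were. Lowest against wild type among named members were AT2G29670 (log2 difference -0.42) and AT5G56100 (-0.42). Highest were AT3G15570 (0.50) and AT3G20270 (0.40).

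**Figure D5:**
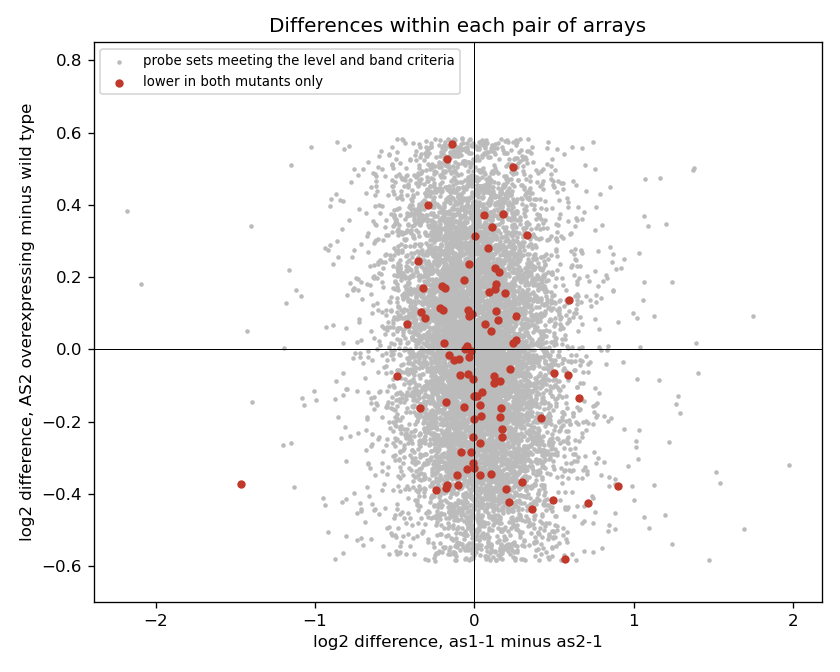
Log2 difference of as1-1 minus as2-1 (horizontal axis) against that of AS2 overexpressing minus wild type (vertical axis) for the 95 members (red) and all probe sets that met the level and closeness criteria (grey). Most members lie near the centre line between the mutants (median 0.00), with probe set 254098_at far to the left at -1.46. The vertical spread is bounded by the rule.

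Position in the genome and gene length were not used by the rule. Of the 57 named members, 10 lay on chromosome 1, 5 on chromosome 2, 17 on chromosome 3, 11 on chromosome 4 and 14 on chromosome 5. Chromosome 3 thus held 29.8% of the named members, against 21.2% of the 5101 named probe sets tested, and chromosome 1 held 17.5% against 25.4%. By the order of protein-coding genes in TAIR10.1, the closest pair of named members was AT4G13220 and YUC2, 8 places apart. Members with several genes or none were not placed, so a closer pair among them would not be seen. Among genes within 3 places of a named member, 86 were measured at 80 or more in both AS2 overexpressing and wild type apices. Of these, 1 (1.16%) had a gap of at least 1.5, where 1.05% of all such probe sets did. It was LHCB4.2, 2 places from AT3G08920. LHCB4.2 encodes an antenna protein of photosystem II and gave 3593 in as1-1 and 1726 in as2-1, against 5853 in AS2 overexpressing and 9224 in wild type apices. The median annotated length was 1988 base pairs for the named members and 2442 for the named probe sets tested.

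Among the remaining lists, none held a member. The mitosis and cytokinesis list had 1 of 5 measured genes at least 1.5-fold lower than wild type in each mutant, the kinesin gene AT2G36200. It gave 253 in as1-1 and 118 in as2-1, against 331 in AS2 overexpressing and 467 in wild type apices. The list medians of the log2 difference from wild type were -0.53 in as1-1 and -0.45 in as2-1. From the AS2 overexpressing array these medians were smaller, -0.29 in as1-1 and -0.23 in as2-1. The stomatal lineage list had EPFL9, which promotes stomata and is made in the mesophyll, at 521 in as1-1 and 703 in as2-1, against 1041 in AS2 overexpressing and 853 in wild type apices, lower than wild type by at least 1.5-fold in as1-1 only. SPCH, which starts the lineage, gave 193.5 in as1-1 and 217 in as2-1, against 189 in AS2 overexpressing and 215 in wild type apices. The median log2 differences of the 4 measured genes of that list from wild type were -0.32 in as1-1 and -0.11 in as2-1. From the AS2 overexpressing array these medians were smaller, -0.15 in as1-1 and -0.02 in as2-1. MUTE, under the floor on all 4 arrays, entered these medians with a difference of 0. TRY of the trichome list and CLV3 of the meristem list lay under the floor on all 4 arrays. AGL24 of the flower list gave 76.4 in as1-1 and 114 in as2-1, against 121 in AS2 overexpressing and 153 in wild type apices. None of the vascular and root markers was named. The 5 measured reference genes had median log2 differences from wild type of 0.07 in as1-1 and 0.10 in as2-1. FBOX was the 1 of these at least 1.5-fold from wild type, with 128 in as1-1 and 85.6 in as2-1, against 78.6 in AS2 overexpressing and 79.6 in wild type apices. In the clock list 0 of 3 genes were at least 1.5-fold lower than wild type in as1-1 and 1 of 3 in as2-1, and 2 of 3 were higher in each mutant. The higher genes were COR27 and COR28, cold-regulated genes tied to the clock. COR27 gave 953 in as1-1 and 676 in as2-1, against 925 in AS2 overexpressing and 134 in wild type apices. COR28 gave 276 in as1-1 and 159 in as2-1, against 264 in AS2 overexpressing and 51.7 in wild type apices. In both genes wild type was the array that stood apart. GI, the lower gene, gave 616 in as1-1 and 184 in as2-1, against 642 in AS2 overexpressing and 602 in wild type apices. In the adaxial and abaxial leaf lists 0 of 2 genes each were lower in either mutant, while YAB5 was higher in both and AGO7 in as2-1. In the DNA replication and starch lists 0 of 1 each were lower or higher.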

How the data were processed

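Signals for 4 Affymetrix arrays, 1 per genotype, were used as deposited by the authors, a linear intensity per probe set. The labels describe biotin-labelled cRNA made by the array maker's standard protocol. The sources used here name no software or settings for them. The mean signal without the highest and lowest 2% was 198 on all 4 arrays, as after scaling to a common level, and medians ran from 75.7 to 82.5. Neither detection calls nor errors for single probe sets were used. Precision is limited by the number of arrays.

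Signals under 43 were raised to 43 and differences taken as log2 ratios, with Python 3.11.15 and pandas 2.3.3. Of 22746 probe sets, 13513 had 1 gene in the platform annotation, 503 several and 8730 none, and 13436 matched a TAIR10.1 locus of RefSeq, used for names, chromosomes, gene order and gene length only. The array's build was not given, so no coordinates are printed. The members, the 20 gene lists (258 genes, 49 of them measured) and the thresholds were chosen with earlier results of these data known. Named with values were the 30 named members with the largest gap, members at the floor, on a list or in a family with 2 members, and, added later, members of the role groups. The regulators of plastid genes, class I KNOX, nitrogen assimilation, vascular and root lists had no named gene on the array. Symbols came from the platform annotation, while family and role descriptions of members are background knowledge. The fold of 1.2 for differences within a pair of arrays was set after a slightly larger one had been seen. Other scalings (limma 3.58.1), floors and thresholds were tried as alternatives.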

Additional observations from a re-analysis of the deposited data

How the results depend on the processing

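The number of probe sets lower in both mutants only was 95 in the setting reported, 124 with each array centred on its median, 106 after quantile normalization and 107 after loess, and all 95, 90 and 89 of the members were kept in these. It was 95 with the floor at 20, 70 with a narrower band for AS2 overexpressing and wild type, and 97 with the genes left out by name kept in, an alternative chosen after seeing the data. It dropped to 59 with a minimum level of 160, to 54 with the floor at the 60th percentile of all signals (128.6), and to 14 with a gap of at least 2. These settings are stricter by construction. With the 60th percentile floor 29 of the 57 named members kept a gap of 1.5. A smaller gap in the same direction was left for 12 (AT3G49160 at a log2 gap of 0.41 and CFM3B at 0.48 among them). The other 16 were at or under that floor on 3 arrays or more. No gap was computed for these, and they did not keep one of 1.5. Over the scalings, floors and minimum level tried, the members' median log2 gap lay between 0.63 and 0.76 (0.72 as reported), the median of as1-1 minus as2-1 between 0.00 and 0.05, and the median of AS2 overexpressing minus wild type between -0.07 and 0.00. With a fold of 1.3 in place of 1.2, a choice made after seeing the data, the share of members lower in AS2 overexpressing than in wild type apices moved to 9.47% and the share higher to 4.21%. No paired analysis was possible because each genotype had 1 array, and for the same reason no array could be left out.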

Other observations

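LHCB4.2 and AT1G59740, left out by name, met the level and the gap but not the closeness of AS2 overexpressing and wild type apices. Another 14 probe sets, not left out by name, did the same. In 13 of these 14 AS2 overexpressing apices lay between the mutants and wild type, and in 1 they lay above wild type. Their selection allowed only these orders. How often each occurs among all probe sets that failed the closeness was not counted, so nothing is read from the split of these 14. Of the 5 with a name, AT5G48490, of the lipid transfer protein family, gave 626 in as1-1 and 581 in as2-1, against 1197 in AS2 overexpressing and 2328 in wild type apices, and AT3G01060 gave 92.7 in as1-1 and 82.5 in as2-1, against 145 in AS2 overexpressing and 358 in wild type apices. UGT88A1, a glycosyltransferase gene, gave 637 in as1-1 and 548 in as2-1, against 983 in AS2 overexpressing and 1485 in wild type apices. AT4G16870 gave 184 in as1-1 and 167 in as2-1, against 289 in AS2 overexpressing and 459.8 in wild type apices, and AT1G03660 gave 62 in as1-1 and 60.2 in as2-1, against 100.2 in AS2 overexpressing and 151 in wild type apices. These genes were selected after their values were seen.

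Of the 5 genes left out by name, 2 met every numeric criterion. AT5G59130, of the subtilase family like AT5G45650, gave 43.8 in as1-1 and 54.1 in as2-1, against 136 in AS2 overexpressing and 158 in wild type apices (gap 2.51). PORB, which reduces protochlorophyllide in the light, had a gap of 1.5.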
